A study of Homo sapiens with 6 samples.

Results

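The HOX genes were followed in T24 cells, a widely used human bladder carcinoma cell line, with and without TGF-b1. The members were all rows of the deposited table whose name is HOX, a cluster letter from A to D and a number, which gave 39 genes of 57167 distinct gene names. HOXC5 holds 2 rows, both at 0 in every library. Of the 39 genes, 18 reached at least 1 FPKM (fragments per kilobase of exon, scaled to library depth, a level corrected for gene length) in at least 3 libraries and were tested, and 21 did not.

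HOX genes encode homeodomain transcription factors that give cells their position along the body axis. They lie in 4 clusters, HOXA to HOXD, and a gene's number is its paralog group, so that genes of the same number in different clusters are the closest relatives. Low numbers are used towards the head and high numbers towards the tail and the urogenital tract, and adult cells and cancer lines keep a characteristic set. Polycomb proteins keep HOX genes silent, trithorax and MLL proteins keep them active, and retinoic acid induces the low-numbered ones. The order of genes on the chromosome follows the paralog number in each cluster.

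The series holds 3 control libraries and 3 libraries of cells given TGF-b1 at 10 ng/ml for 48 h, all of unmodified T24 cells collected on day 2 in medium with 10% serum. The labels do not say whether the replicates were separate cultures, so the p-values cover the spread among these libraries only, and that spread may be technical. TGF-b1 is a cytokine whose signal reaches genes through SMAD proteins. In bulk RNA, fewer cells expressing a gene and less of its RNA per cell cannot be told apart. The libraries held 20703945 to 23678772 fragments assigned to genes with a unique name.

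The cells carried the response and the epithelial keratins KRT7, KRT8 and KRT18. SMAD7, a feedback inhibitor that TGF-b1 induces, rose from 2.35 ± 0.30 to 6.39 ± 0.93 FPKM (SD, n = 3 libraries, limma adjusted p = 0.000545), as a check of the labels. PMEPA1, another target of the pathway, stood at 15.2, 14.6 and 12.4 FPKM in control and 75.3, 63.6 and 66.2 with TGF-b1. Of 16 urothelial and epithelial markers 7 were measured, with KRT18 at 322 FPKM in control and 227 with TGF-b1, while KRT5, KRT19 and UPK3A were at 0 and CDH1 had 12 and 14 fragments in all. KRT20, UPK2, EPCAM, GATA3 and TP63 were also under the filter. The 7 fibroblast markers summed to 0.0488 to 0.188 FPKM per library, and none of the fibroblast, endothelial and leukocyte markers reached the filter. Control 3 stands apart in how much the number of changed genes depends on it. The adjusted threshold was passed by 277 of 11363 genes with all libraries and by 3280 without control 3.

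Promoter and microRNA sequences are shown first, because the clusters hold their own regulatory RNAs. HOXA4, HOXA7 and HOXA9 were picked because their groups did not overlap. Over all tested genes 12.5% were lower without overlap and 14.6% higher. The promoters are the bases before the RefSeq start (GRCh38.p14) that lie outside annotated exons, on the minus strand, with CG dinucleotides in capitals. The HOXA4, HOXA7 and HOXA9 stretches lie inside longer gene models of GENCODE 29, between their exons. HOXA4 and HOXA7 were low in the TGF-b1 libraries, HOXA9 was high in them, and HOXB1 was at 0 fragments everywhere. The stretches lie at chr7:27130800-27131007 for HOXA4, chr7:27156755-27156925 for HOXA7, chr7:27165538-27165787 for HOXA9 and chr17:48531012-48531261 for HOXB1.
HOXA4: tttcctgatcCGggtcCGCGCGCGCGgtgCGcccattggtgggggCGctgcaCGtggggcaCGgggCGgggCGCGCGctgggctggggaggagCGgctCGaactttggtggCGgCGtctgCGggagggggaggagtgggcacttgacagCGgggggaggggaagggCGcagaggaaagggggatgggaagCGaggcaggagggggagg
HOXA7: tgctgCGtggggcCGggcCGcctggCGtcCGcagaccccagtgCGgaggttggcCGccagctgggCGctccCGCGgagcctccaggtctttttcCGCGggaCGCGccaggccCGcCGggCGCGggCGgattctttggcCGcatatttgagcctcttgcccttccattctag
HOXA9: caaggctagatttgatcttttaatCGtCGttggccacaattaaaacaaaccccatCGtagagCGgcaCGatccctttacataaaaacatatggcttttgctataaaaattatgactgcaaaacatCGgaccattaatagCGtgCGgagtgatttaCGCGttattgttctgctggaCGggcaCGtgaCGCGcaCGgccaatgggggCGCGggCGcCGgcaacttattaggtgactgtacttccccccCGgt
HOXB1: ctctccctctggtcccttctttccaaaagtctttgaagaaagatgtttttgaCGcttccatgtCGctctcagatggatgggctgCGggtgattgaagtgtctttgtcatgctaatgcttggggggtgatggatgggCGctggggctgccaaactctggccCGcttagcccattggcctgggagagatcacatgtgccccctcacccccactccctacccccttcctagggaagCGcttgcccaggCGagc

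The HOXA4, HOXA7 and HOXA9 stretches, of 208, 171 and 250 bases, held 22, 20 and 20 CG dinucleotides. That of HOXB1, of 250 bases, held 7. Promoter windows of 250 bases were at hand for 20 members, 27 windows in all, with a median of 19 CG dinucleotides against 11 over 35116 windows of all genes. Of the other members at 0 fragments with a window, HOXD4 held 4, HOXC5 14 (the same window as HOXC4) and HOXD13 21. Whether CG content goes with level was not tested. The SMAD-binding motif CAGAC, searched on both strands (as CAGAC or GTCTG), was in 9 of the 27 windows (33.3%) and in 38% of all windows. HOXA4 and HOXA7 each had 1 match in their 250 bases and HOXA9 had none. A match is a description of the letters and not a site.

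The clusters also hold microRNA genes of the miR-10 and miR-196 families, and miR-196 is known to repress HOX transcripts. The mature sequences below (RefSeq, GRCh38.p14) have bases 2 to 8, the seed, in capitals. miR-196a comes from both the HOXB and the HOXC cluster, miR-196b from HOXA and miR-10a from HOXB.
hsa-miR-196a-5p: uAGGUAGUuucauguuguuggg
hsa-miR-196b-5p: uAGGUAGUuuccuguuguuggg
hsa-miR-10a-5p: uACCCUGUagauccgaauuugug

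Both miR-196 species share their seed. Its complement, ACTACCT, was present in the longest annotated 3' untranslated region of 9 of 39 members (23.1%) and of 1371 of 19151 protein-coding genes (7.16%), although the members' median region was shorter, 866 against 1104 bases. HOXA7 held 4 matches, the most of any member. HOXA9 and HOXC8 held 2, and HOXA5, HOXB1, HOXB6, HOXB7 and HOXB13 were among those that held 1. The stretch opposite the 22 bases of miR-196a is shown with the seed match in capitals for HOXA7, the member with the most matches, and for HOXB7, the most abundant member.
HOXA7: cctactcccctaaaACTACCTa
HOXB7: aacactgaaaaaatACTACCTa

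A match was found in the most abundant member as well as in low ones. The median level was 1.73 FPKM in members with a match and 0.658 in those without. Whether matches go with level was not tested. Mature microRNAs are not measured by these libraries. The MIR196A1 hairpin row held 37 fragments in control and 40 with TGF-b1, and MIR196A2, MIR196B and MIR10A were at 0. These hairpins lie within HOX gene models on the same strand, so a row at 0 may be understated where exons are shared.

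The HOX set of T24 cells was led by the HOXB cluster. HOXB7, which lies on chromosome 17 at 48607227 to 48633572 (GRCh38, minus strand), was the most abundant, at 23.7, 25.5 and 19.9 FPKM in the control libraries and 19.7, 20.2 and 19.0 in the TGF-b1 libraries. It alone made up 22.3% of the FPKM summed over all members and stood at percentile 78.0 of the 10003 protein-coding genes tested. HOXB2, a hindbrain patterning gene in the embryo, followed at 15.9, 18.1 and 14.4 FPKM in control and 14.1, 13.98 and 13.3 with TGF-b1. The lowest HOXB7 library was above the highest HOXB2 library, so that this order held in every library.

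HOXC9 was the third, at 10.8, 13.1 and 9.56 FPKM in control and 9.21, 10.3 and 8.23 with TGF-b1. HOXB4, a gene known for its role in blood stem cells, was at 9.06, 9.06 and 7.30 FPKM in control and 9.06, 7.48 and 6.30 with TGF-b1. HOXC9 and HOXB4 overlapped, while both were above HOXA5 in every library. HOXA5, on chromosome 7 at 27141052 to 27143668, was the fifth, at 5.0, 5.05 and 4.69 FPKM in control and 4.08, 4.37 and 4.24 with TGF-b1.

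Below HOXA5 the order could not be resolved from neighbour to neighbour. HOXB6, HOXD11, HOXB3, HOXD9, HOXD10, HOXA3, HOXA4, HOXB9, HOXC10, HOXA9, HOXA10, HOXB5 and HOXA6 had means over all libraries from 3.23 down to 1.02 FPKM. Each of them overlapped the next over the 6 libraries.

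**Figure D1:**
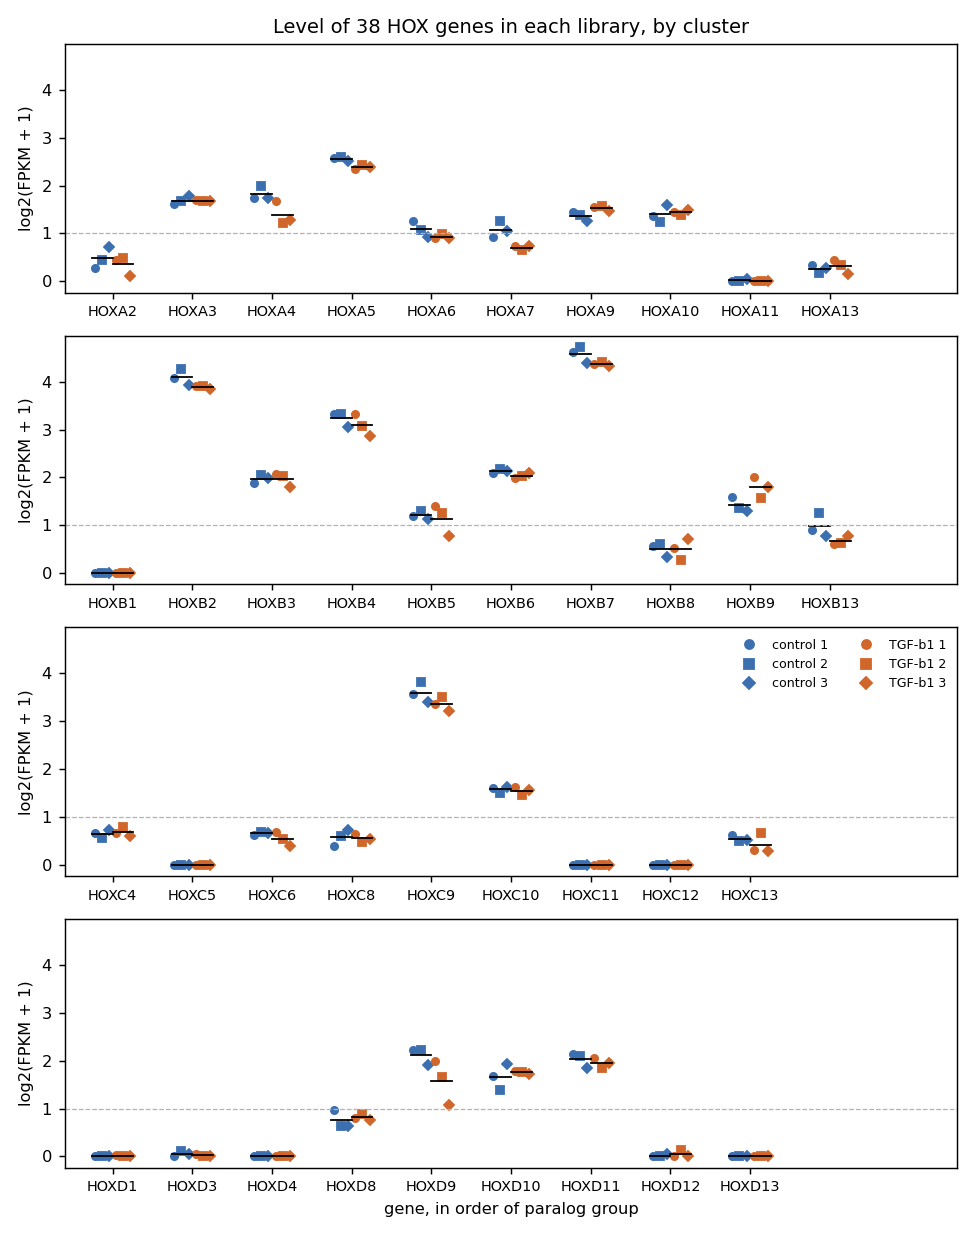
Level of 38 of the 39 HOX genes as log2(FPKM + 1) in the 6 libraries, 1 panel per cluster and genes in order of paralog number; points are libraries, black bars are group means, and the dashed line is 1 FPKM. HOXB7, HOXB2, HOXC9 and HOXB4 stand highest, and HOXC11, HOXC12 and HOXD13 are at 0.

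Level did not follow the order of genes along a cluster. In HOXB, high and low genes were interspersed, with means over all libraries of 14.97 FPKM for HOXB2, 2.91 for HOXB3, 8.04 for HOXB4, 1.27 for HOXB5, 3.23 for HOXB6, 21.3 for HOXB7, 0.42 for HOXB8, 2.08 for HOXB9 and 0.793 for HOXB13, and HOXB1 at 0. In HOXD the measured genes were HOXD9, HOXD10 and HOXD11, at 2.72, 2.29 and 2.99 FPKM. HOXD8 was at 0.729 FPKM, and HOXD1, HOXD3, HOXD4, HOXD12 and HOXD13 had 0 to 14 fragments over all libraries. In HOXC the pair HOXC9 and HOXC10 was measured, at 10.2 and 1.96 FPKM, and their posterior neighbours HOXC11 and HOXC12 had no fragment. In HOXA, 6 of 11 members passed the filter, and the posterior HOXA11 had 2 fragments.

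The share of a paralog group that came from its highest member varied, and it was over 90% in 5 of 13 groups. HOXB2 supplied 97.8% of the FPKM of group 2, HOXB7 96.1% of group 7 and HOXD11 99.8% of group 11. In groups 4, 5 and 6 the highest members, HOXB4, HOXA5 and HOXB6, supplied 74.9%, 78.2% and 67.7%. Members that share exon bases with other genes may be understated, which would raise the share of the highest member. In group 7, 62.5% of the exon bases of HOXA7 are shared and none of HOXB7. In group 4, the shared part is 80.5% in HOXD4, 47.3% in HOXA4 and 17.1% in HOXB4. Groups 3, 8, 9, 10 and 13 were spread more evenly, with HOXB3 at 56.5%, HOXD8 at 44.7%, HOXC9 at 60.9%, HOXD10 at 38.6% and HOXB13 at 55.8%. Group 12, 1 of the 5, was close to silent, at 0.0209 FPKM in all. Of the group 13 genes, which mark the most posterior tissues, HOXB13 was highest, at 0.863, 1.40 and 0.711 FPKM in control and 0.525, 0.553 and 0.704 with TGF-b1.

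Summed over a cluster, HOXB made up 57.6% of HOX FPKM, HOXA 18.4%, HOXC 14.8% and HOXD 9.2%. The HOXA sum was 18.5 ± 0.135 FPKM in control and 16.7 ± 0.938 with TGF-b1 (SD, n = 3), with no overlap between the groups. The HOXB sum was 58.3 ± 6.47 and 51.8 ± 2.96 FPKM, the HOXC sum 15.2 ± 1.5 and 13.1 ± 1.3, and the HOXD sum 9.41 ± 0.735 and 8.17 ± 1.22, each with overlap. By position, anterior genes (groups 1 to 3) summed to 24.4 ± 1.72 and 22.1 ± 1.45 FPKM, with no overlap, central genes (4 to 8) to 48.6 ± 4.73 and 41.7 ± 2.56, and posterior genes (9 to 13) to 28.4 ± 2.04 and 25.8 ± 2.14, both with overlap. The anterior groups nearly met, at 23.2 in the lowest control and 23.1 in the highest TGF-b1 library. All 7 sums were 0.856 to 0.91 of control, and the sum over all members was 0.884 of it. That last sum was 101 FPKM in control and 89.7 with TGF-b1. With the libraries rescaled to equal total FPKM it was 98.6 and 92.5, a smaller difference. These sums are descriptions with no test, and they are carried by the few abundant genes.

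**Figure D2:**
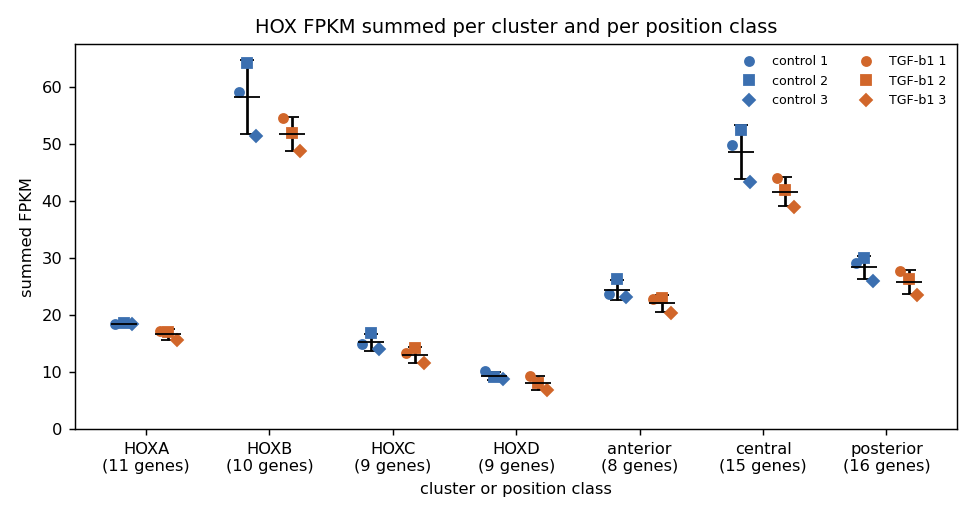
FPKM summed over the members of each cluster and each position class, per library; points are libraries, horizontal marks are group means and bars are SD (n = 3). The HOXA sums of the 3 TGF-b1 libraries, 15.6 to 17.3, lie below those of the 3 control libraries, 18.4 to 18.7.

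No HOX gene passed the test with TGF-b1. Of 18 members tested by limma on log2(FPKM + 1), 0 had an adjusted p under 0.05, where 2.44% of all 11363 genes did, and the smallest adjusted p was 0.109. At an unadjusted p under 0.05 there were 3 members, HOXA4, HOXB9 and HOXD9, against 25.1% of all genes. By voom on recovered fragments 0 members passed, where 8.98% of genes did. The log2 change was below 0 in 13 members and above 0 in 5, where 48.0% of all tested genes were below 0. The median was -0.071 against 0.012 over all genes tested. With the libraries rescaled to equal total FPKM 10 members were below 0, with a median of -0.016 against 0.077 over all genes. By upper-quartile rescaling or by voom 11 were below 0, and leaving out single libraries gave 11 to 14. In 4 tested members every TGF-b1 library was below every control library and in 1 every TGF-b1 library was above, against 12.5% and 14.6% of all genes.

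The 95% intervals, given on log2(FPKM + 1), a scale that compresses low levels, were below -1 at their lower end for HOXD9 alone, and none reached 1. By voom, which works on fragments, the log2 changes of the low genes HOXA4, HOXB9 and HOXD9 were -0.63, 0.59 and -0.78. For HOXB7 the change was -0.21 with an interval of -0.44 to 0.018, for HOXB2 -0.21 (-0.43 to 0.017), for HOXC9 -0.24 (-0.51 to 0.027) and for HOXB4 -0.14 (-0.43 to 0.14). The groups of HOXB2 did not overlap. Those of HOXB7, HOXC9 and HOXB4 did. Without control 3, HOXB7 (adjusted p = 0.0214) and HOXB2 (adjusted p = 0.0388) passed limma's test as lower, in a setting where 28.9% of all genes passed. These members are rich in G and C, with a median of 54.4% in the tested members against 48.1% in all tested genes. With each library corrected for GC content and gene length, HOXB2 stood at -0.013, HOXC9 at -0.047 and HOXB7 at -0.102, and 7 of 18 members were below 0 instead of 13.

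**Figure D3:**
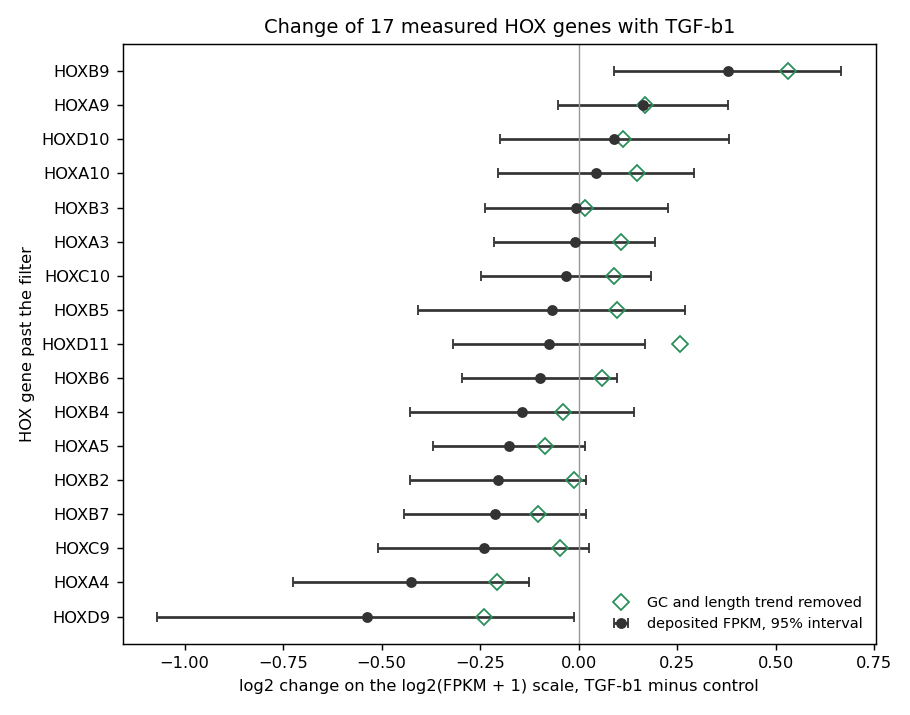
Log2 change (TGF-b1 minus control) of 17 of the 18 tested HOX genes on the log2(FPKM + 1) scale, with 95% intervals from limma as bars, and the value after correction for GC content and length as open diamonds. HOXA4, HOXD9 and HOXB9 are the members whose intervals exclude 0 before adjustment, and most diamonds lie to the right of the points.

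HOXA4 had the smallest p. On chromosome 7 at 27128507 to 27130799, it stood at 2.35, 2.96 and 2.33 FPKM in control and 2.22, 1.31 and 1.45 with TGF-b1, a ratio of 0.652. TGF-b1 1 lay close to the control libraries, and TGF-b1 2 and 3 lay well below them. The log2 change was -0.43 (SE 0.14, limma adjusted p = 0.109), 303 fragments against 198. It passed the threshold without TGF-b1 1 (-0.57, adjusted p = 0.0395, where 2.9% of genes passed) and over protein-coding genes alone (adjusted p = 0.0441, where 8.42% of genes passed). After the GC and length correction it was -0.21 (adjusted p = 0.359).

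HOXA7, 3 HOX genes further along, had a lower ratio, 0.564. It stood at 0.908, 1.39 and 1.06 FPKM in control and 0.659, 0.571 and 0.664 with TGF-b1, and the groups did not overlap (184 against 105 fragments). It missed the filter because 4 libraries, control 1 and all with TGF-b1, were under 1 FPKM. With a mean of 0.5 FPKM over all libraries as the filter, chosen after the data were seen, its log2 change was -0.37 (limma adjusted p = 0.133). HOXA5, between them, did not overlap either, at 4.91 ± 0.19 and 4.23 ± 0.15 FPKM (log2 change -0.18, adjusted p = 0.228). After the GC and length correction HOXA5 was at -0.085 (limma adjusted p = 0.454). HOXA6 stood at 1.39, 1.10 and 0.909 FPKM in control and 0.872, 0.973 and 0.885 with TGF-b1, with overlap.

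The genes on either side of HOXA4 to HOXA7 had other values. HOXA9, a gene known from leukaemia, stood at 1.74, 1.60 and 1.40 FPKM in control and 1.93, 1.97 and 1.77 with TGF-b1, and was the tested member whose TGF-b1 libraries were all above the controls (log2 change 0.16, adjusted p = 0.306). HOXA10, which patterns the reproductive tract, stood at 1.59, 1.35 and 2.02 FPKM in control and 1.71, 1.63 and 1.82 with TGF-b1 (adjusted p = 0.823), with overlap. On the anterior side, HOXA3 stood at 2.04, 2.21 and 2.42 FPKM in control and 2.23, 2.18 and 2.18 with TGF-b1. Its groups overlapped. Whether the change of HOXA4 to HOXA7 differs from that of its neighbours was not tested.

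**Figure D4:**
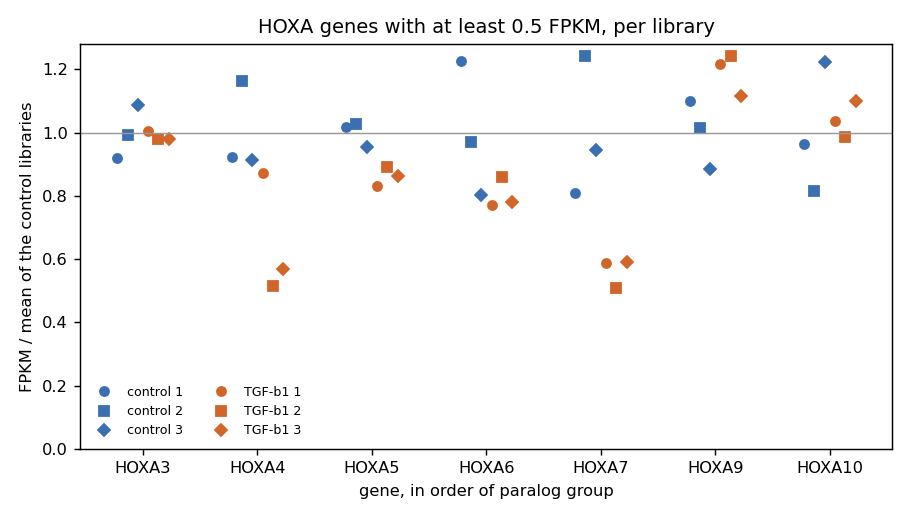
FPKM of each library divided by the mean of the control libraries, for 7 HOXA genes with a mean of at least 0.5 FPKM in either group, in order of paralog number; points are libraries. HOXA4, HOXA5 and HOXA7 have all TGF-b1 libraries below all control libraries, and HOXA9 has them above.

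Among cluster RNAs under the filter, HOXA-AS2, HOXA-AS3 and HAGLR had every TGF-b1 library below every control library. How many of all genes at such low levels do so was not counted. HOXA-AS2 and HOXA-AS3 are antisense RNAs of the HOXA cluster. HOXA-AS2, which overlaps HOXA3 and HOXA4 on the opposite strand, had 95 fragments in control and 46 with TGF-b1, and HOXA-AS3, which runs over HOXA4 to HOXA7, had 81 and 52. Both were under the filter, at 0.264 and 0.125 FPKM and at 0.199 and 0.127 FPKM. They share exons with these genes, 16.3% of the exon bases of HOXA4 being opposite another gene's exons and 62.5% of those of HOXA7. All 17 genes wholly covered by opposite-strand exons were listed at 0, so fragments in shared bases may be counted for neither RNA. HOXA5 shares no exon base with another gene.

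HOXB9 was the member with the largest positive change. On chromosome 17 at 48621159 to 48626356, it stood at 2.01, 1.58 and 1.44 FPKM in control and 3.04, 1.95 and 2.48 with TGF-b1, a ratio of 1.49. Control 1 was above TGF-b1 2, so the groups overlapped. The log2 change was 0.38 (SE 0.13, 95% interval 0.090 to 0.667, limma adjusted p = 0.128). After the GC and length correction it was 0.53 at an adjusted p of 0.0499, where 4.36% of all genes passed, and 0.0192 with the replicate number also as a block, a fit added after seeing the data, where 4.92% did. HOXB9 shares no exon base with another gene. The neighbouring HOXB-AS4 transcript was at 4.01, 2.64 and 4.33 FPKM in control and 5.87, 4.43 and 4.34 with TGF-b1 (log2 change 0.34, adjusted p = 0.202), with no overlap, although TGF-b1 3 and control 3 nearly met.

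HOXD9 had the most negative change and the widest interval. It stood at 3.66, 3.66 and 2.75 FPKM in control and 2.97, 2.19 and 1.10 with TGF-b1, with overlap between TGF-b1 1 and control 3. The log2 change was -0.54 (95% interval -1.07 to -0.011, limma adjusted p = 0.194). With the replicate number as a block the limma adjusted p was 0.0506, in a setting where 767 of 11363 genes passed. After the GC and length correction the log2 change was -0.24 (adjusted p = 0.513). Without TGF-b1 3 it was -0.29 (adjusted p = 0.342). TGF-b1 3 is the library in which 8 of the 18 tested members were lowest, against 20.1% of all tested genes. Of its neighbours, HOXD10 stood at 2.19, 1.61 and 2.83 FPKM in control and 2.43, 2.42 and 2.28 with TGF-b1 and overlapped. HOXD11 stood at 3.41, 3.31 and 2.58 FPKM in control and 3.19, 2.61 and 2.85 with TGF-b1 and overlapped too. Whether HOXD9 differs from them in its change was not tested.

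The other measured members named here had log2 changes between -0.098 and -0.0064. They were HOXB6 (-0.098, groups not overlapping), HOXB5 (-0.068), HOXC10 (-0.033), HOXB3 (-0.0064) and HOXA3, given above. HOXB6 stood at 3.28, 3.50 and 3.36 FPKM in control and 2.94, 3.09 and 3.23 with TGF-b1, and its highest TGF-b1 library nearly met its lowest control library. HOXB3 stood at 2.66, 3.15 and 2.94 FPKM in control and 3.18, 3.06 and 2.47 with TGF-b1 and HOXC10 at 2.05, 1.82 and 2.10 FPKM in control and 2.10, 1.74 and 1.93 with TGF-b1, both with overlap. HOXB5 stood at 1.29, 1.45 and 1.19 FPKM in control and 1.65, 1.37 and 0.701 with TGF-b1, and its TGF-b1 libraries included both its highest and its lowest value.

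The members under the filter were mostly present at low levels. Means of at least 0.5 FPKM in either group were found for 6 of the 21, HOXA6, HOXA7, HOXB13, HOXC4, HOXC6 and HOXD8. HOXB13, a prostate and hindgut gene, had 234 fragments in control and 143 with TGF-b1, and its groups nearly met. HOXC4 stood at 0.590, 0.470 and 0.651 FPKM in control and 0.583, 0.719 and 0.510 with TGF-b1, with overlap. HOXC6 stood at 0.543, 0.599 and 0.587 FPKM in control and 0.607, 0.459 and 0.309 with TGF-b1, also with overlap. HOXD8 stood at 0.969, 0.555 and 0.560 FPKM in control and 0.746, 0.841 and 0.705 with TGF-b1. HOXA2, HOXA13, HOXB8, HOXC8 and HOXC13 had 116 to 155 fragments over all libraries, and HOXA11, HOXD1, HOXD3 and HOXD12 had 1 to 14.

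At 0 in all libraries were HOXB1, HOXC5, HOXC11, HOXC12, HOXD4 and HOXD13. For HOXB1, HOXC11, HOXC12 and HOXD13, which share no exon base with another gene, a count of 0 allows up to 3 fragments, or 0.0375 to 0.0626 FPKM by gene and library. HOXD4 and HOXC5 are different, because 80.5% and 59.9% of their exon bases lie in exons of another gene on the same strand. Of 228 protein-coding genes wholly covered by exons of same-strand genes 80.3% were listed at 0 in all libraries, and of 17 wholly covered by opposite-strand genes all 17 were, against 24.8% of 11699 genes with under 1% covered. A value of 0 for HOXD4 or HOXC5 therefore says little about the shared bases and bears on the unshared ones only. HOXD3 (74.1% shared), HOXA7 and HOXA4 (47.3%) may be understated. These floors cover counting error only. Between members, identical stretches of 100 bases occurred only within a cluster, in HOXB3 with HOXB6, HOXD10 with HOXD11, and among HOXC4, HOXC5 and HOXC6.

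HOX proteins bind DNA together with PBX, MEIS and PKNOX partners, and 3 of 9 such genes were measured. PBX3 rose, at 6.01, 5.30 and 6.11 FPKM in control and 8.28, 8.83 and 8.91 with TGF-b1 (log2 change 0.51, SE 0.091, limma adjusted p = 0.0147). PBX2 was at 8.04 ± 0.84 and 6.42 ± 0.50 FPKM (adjusted p = 0.133) and PKNOX1 at 3.44 ± 0.20 and 3.66 ± 0.23. MEIS1, MEIS2 and MEIS3 were under 1 FPKM in every library, and PKNOX2 was at 0. Leaving out control 1, control 2, TGF-b1 2 or TGF-b1 3 ended the PBX3 call (adjusted p of 0.0581 to 0.0754), as did testing with no filter (0.139).

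Among 24 non-coding RNAs of the clusters 5 were measured and 0 passed limma's test, with 1 at an unadjusted p under 0.05, where 2.44% and 25.1% of all genes did. HOTAIRM1, at the anterior end of the HOXA cluster, was at 2.05 ± 0.32 and 2.31 ± 0.15 FPKM. HOTAIR, the HOXC antisense RNA known for its link to Polycomb in cancer, had 0 fragments, and HOTTIP, beside HOXA13, had 6 in control and 0 with TGF-b1. HOXC-AS2, which overlaps HOXC9, was at 1.98, 1.89 and 1.60 FPKM in control and 1.03, 1.47 and 1.20 with TGF-b1 (adjusted p = 0.113), without overlap.

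Regulators of the clusters did not pass either, with 1 exception. Of 31 Polycomb genes all were measured and 0 passed, with 10 at an unadjusted p under 0.05 (25.1% over all genes) and a median log2 change of 0.077. PHC2 was the most abundant of them, at 80.9 ± 10.7 and 63.8 ± 5.20 FPKM, followed by RBBP7 at 28.8 ± 1.59 and 31.5 ± 2.71. Of 19 trithorax, MLL and demethylase genes 18 were measured and 0 passed, with 5 at an unadjusted p under 0.05, again against 25.1% over all genes. WDR5, a core subunit of MLL complexes, was at 25.1 ± 0.55 and 26.8 ± 0.49 FPKM, and MLLT1 at 20.8 ± 1.84 and 16.5 ± 2.07. KDM6A, which removes the Polycomb mark, missed the filter at 0.787 and 0.780 FPKM.

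Of 14 retinoic acid genes 7 were measured, and CYP26B1, which degrades retinoic acid, rose. It stood at 11.1, 11.5 and 10.97 FPKM in control and 16.6, 15.2 and 14.4 with TGF-b1 (log2 change 0.43, limma adjusted p = 0.0346). That call was lost on leaving out any library but control 3 (adjusted p of 0.0578 to 0.165), with no filter (0.223), with a filter of 0.1 FPKM (0.0721) and in limma without trend and robust estimation (0.0533). CRABP2, a retinoic acid carrier, was at 4.19 ± 1.28 and 2.01 ± 0.46 FPKM (adjusted p = 0.0667). Of the homeobox relatives outside the clusters 2 of 13 were measured, MNX1 at 16.8 and 12.4 FPKM and GBX2 at 2.22 and 1.67 FPKM, and CDX1 and CDX4 had no fragment. Of the list of CDX, geminin and other HOX regulators 5 of 10 were measured and 0 passed, with 2 at an unadjusted p under 0.05 (25.1% over all genes). The most abundant were NUP98, at 20.4 ± 2.75 and 24.1 ± 0.65 FPKM, and GMNN, at 17.1 ± 1.26 and 19.8 ± 2.54.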

How the data were processed

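Total RNA of 6 T24 libraries was sequenced as 150 bp pairs. The submitters' processing notes name build hg38, HISAT2 2.0.5 and featureCounts 1.5.0-p3. Annotation release and strand setting: not given in the sources used here. The deposited values are FPKM by the authors. The first 11 rows, mapping totals, were left out, and the 6 single-library files hold the same values. With exon lengths of GENCODE 29 (GRCh38), 99.999% of 126561 values above 0 were whole fragments to within 0.05, which gave the fragment counts.

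limma 3.58.1 in R 4.3.3 (trend and robust) was run on log2(FPKM + 1) over the 11363 genes that reached 1 FPKM in 3 or more libraries, adjusted by Benjamini-Hochberg at 0.05. A fold on this scale understates low genes. The test was tested on simulated data. Members and lists were chosen with earlier results of these data known. Members are described or counted, and 2 genes, 1 of them a member, are not reported here by name. Of the 7 lists, genes past the threshold are named, otherwise the most abundant 2, and those with groups that did not overlap or with a known role were named after their values were seen. Alternatives were other filters, pseudocounts and scalings, voom on recovered fragments, a GC and length trend, the replicate block and leaving out each library. Replicates of a group differed beyond sampling noise (chi-square of 6.07 to 26.2 for each degree of freedom), so none was counted as a repeat.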

Additional observations from a re-analysis of the deposited data

How the results depend on the processing

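Of the 310 values of 17 tested HOX genes under alternatives, 278 kept their direction and their side of the threshold, 6 passed it and 26 changed sign, all in genes whose log2 change was within 0.1 of 0. The number of HOX genes past the threshold was 0 and became 1 over protein-coding genes alone and 1 after the correction for GC content and length, with or without the replicate block; leaving out single libraries gave 0 to 2. The number of all genes was 277; it was 15 with no filter, 144 at 0.1 FPKM, 500 at 5 FPKM, 842 over protein-coding genes, 1014 by voom, 492 with the trend removed and 124 to 3280 leaving out single libraries. With the replicate number as a block it was 767, and 556 with the trend removed too. Same-numbered libraries had correlations of 0.254, -0.0715 and 0.17, and differently numbered ones -0.243 to 0.0694. Whether same-numbered libraries share a batch or a culture was not tested, and the labels do not say. No HOX call changed under the block alone, although HOXD9 came close to the threshold (limma adjusted p = 0.0506).

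Signs changed as follows. With equal sums HOXA3 was 0.0444, HOXB3 0.0544 and HOXC10 0.0196. The HOXA sum was then 18.1 FPKM in control and 17.2 with TGF-b1. With the upper quartile HOXA3 was 0.0122 and HOXB3 0.0186, and by voom 0.0203 and 0.0214. With the trend removed, with or without the replicate block, HOXA3 was 0.107, HOXB3 0.0157, HOXB5 0.098, HOXB6 0.0598, HOXC10 0.0899 and HOXD11 0.257. Leaving out single libraries gave ranges of -0.0404 to 0.141 for HOXA10, -0.0582 to 0.0758 for HOXB3, -0.0502 to 0.227 for HOXD10, -0.0507 to 0.0337 for HOXA3, -0.0767 to 0.0146 for HOXC10 and -0.201 to 0.118 for HOXB5. The cause was not tested. Members under the filter were not part of the main test, and the 18 tested rest on 355 to 4794 fragments each over all libraries.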
